A study of Mus musculus with 8 samples.

Results

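In 1 of 8 mouse tumors, tumor 37, the deposited gene table held a large set of skin genes that were at or near 0 in the other 7 tumors. The genes described here are those with at least 90% of their summed normalized counts in tumor 37 and a symbol that does not begin with Krt, the prefix of keratins and keratin-associated proteins. Genes annotated to the myofibril were to be left out as well, and 0 genes met the mark and had that annotation. The rule gave 80 of the 752 genes in the table. The measured values of all 8 tumors chose these genes, so their levels and their difference between the groups are given as a description, without a test. All 8 tumors grew under the skin of germ-free C57BL/6 mice from MC38, a mouse colon adenocarcinoma cell line labelled wild type, and were taken on day 23. Tumors 11, 17, 18 and 19 came from mice given an antibody against PD-1, an inhibitory receptor of T cells. Tumors 36, 37, 39 and 40 came from mice given the same antibody and, by gavage, the bacterium Fusobacterium nucleatum ATCC-25586. The labels give 1 library per tumor and do not say that each tumor came from a separate mouse.

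The outer layer of skin, the epidermis, is a stratified epithelium. Its basal cells divide, and their daughters move outward, tie themselves together with desmosomes, and end as flattened dead cells whose inner face is a cross-linked protein shell, the cornified envelope. Small proline-rich proteins (Sprr), late cornified envelope proteins (Lce) and filaggrin relatives build or fill that shell, ceramide-rich lipids seal the space around it, and kallikrein proteases later cut the desmosomes so that the cells are shed. Hair follicles and sebaceous glands are down-growths of the same epithelium, and many of the envelope genes lie side by side in a single stretch of the genome called the epidermal differentiation complex.

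A normalized count is the number of reads of a gene divided by a size factor for its library. In tumor 37, 1 read equals a normalized count of 1.16, and in the other tumors it equals 0.789 to 1.55. A value of 0 reads allows up to 3 reads, which is a normalized count of 2.37 to 4.66 depending on the tumor. The table holds genes selected by the authors for a difference between the groups, so the depth of the whole libraries is unknown. Reads in the 752 genes numbered 97511 to 308139 per tumor, with 199018 in tumor 37. The 80 genes took 22479 of those reads in tumor 37, or 11.3%. Among the other tumors the most reads were 95, in tumor 36 (0.0308%), and the largest share was 0.0554%, in tumor 40 (54 reads). Intervals given below cover counting error only, since 1 tumor carries the signal and no replicate of it exists. In bulk RNA, fewer cells of a type and less RNA per cell cannot be told apart.

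Keratin markers, which the rule leaves out, are set beside the label of skin. They come from the same table and the same tumor, so they are not an independent check of that label. Of 14 listed keratins of stratified epithelium, 10 were in the table, all 10 were highest in tumor 37, and 9 had at least 90% of their counts there. Over all 752 genes, 26.6% were highest in tumor 37, and a gene at 0 elsewhere could enter this table, which lists genes with a difference between the groups, only through tumor 37. Their summed level was 324.3 FPKM (fragments scaled to transcript length and library size) in tumor 37 and 0.31 to 0.648 FPKM in the other 7 tumors. Krt14 and Krt5, the paired keratins of basal cells, had 101.9 and 36.5 FPKM in tumor 37. Krt1 and Krt10, the pair of the layers above, had 15.3 and 21.7 FPKM. Of 16 hair keratins listed, 12 were in the table, each with at least 90% of its counts in tumor 37, and they summed to 51.9 FPKM there. Of 9 melanocyte genes, 9 markers of oral and esophageal epithelium, 10 of intestinal epithelium, 6 of adipocytes and 8 of dermal fibroblasts, 0 were in the table, so the levels of these markers were not analysed here.

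Skeletal muscle genes also had a higher summed level in tumor 37 than in 6 of the other tumors. The 13 muscle genes in the table, of 15 listed, summed to 22.0 FPKM in tumor 37, to 417.7 FPKM in tumor 36 and to 1.95 to 4.08 FPKM in the other 6. Their summed range was 1.95 to 2.43 FPKM with anti-PD-1 alone and 2.82 to 417.7 FPKM with F. nucleatum. A filter on these same groups put the muscle genes in the table, so nothing is read from this separation. The muscle gene Myh2 was listed at 0 in tumor 37, and Acta1, the actin of skeletal muscle, had 7.85 FPKM there and 184.3 FPKM in tumor 36. The part of muscle tissue in the values of the skin genes was not tested.

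**Figure D1:**
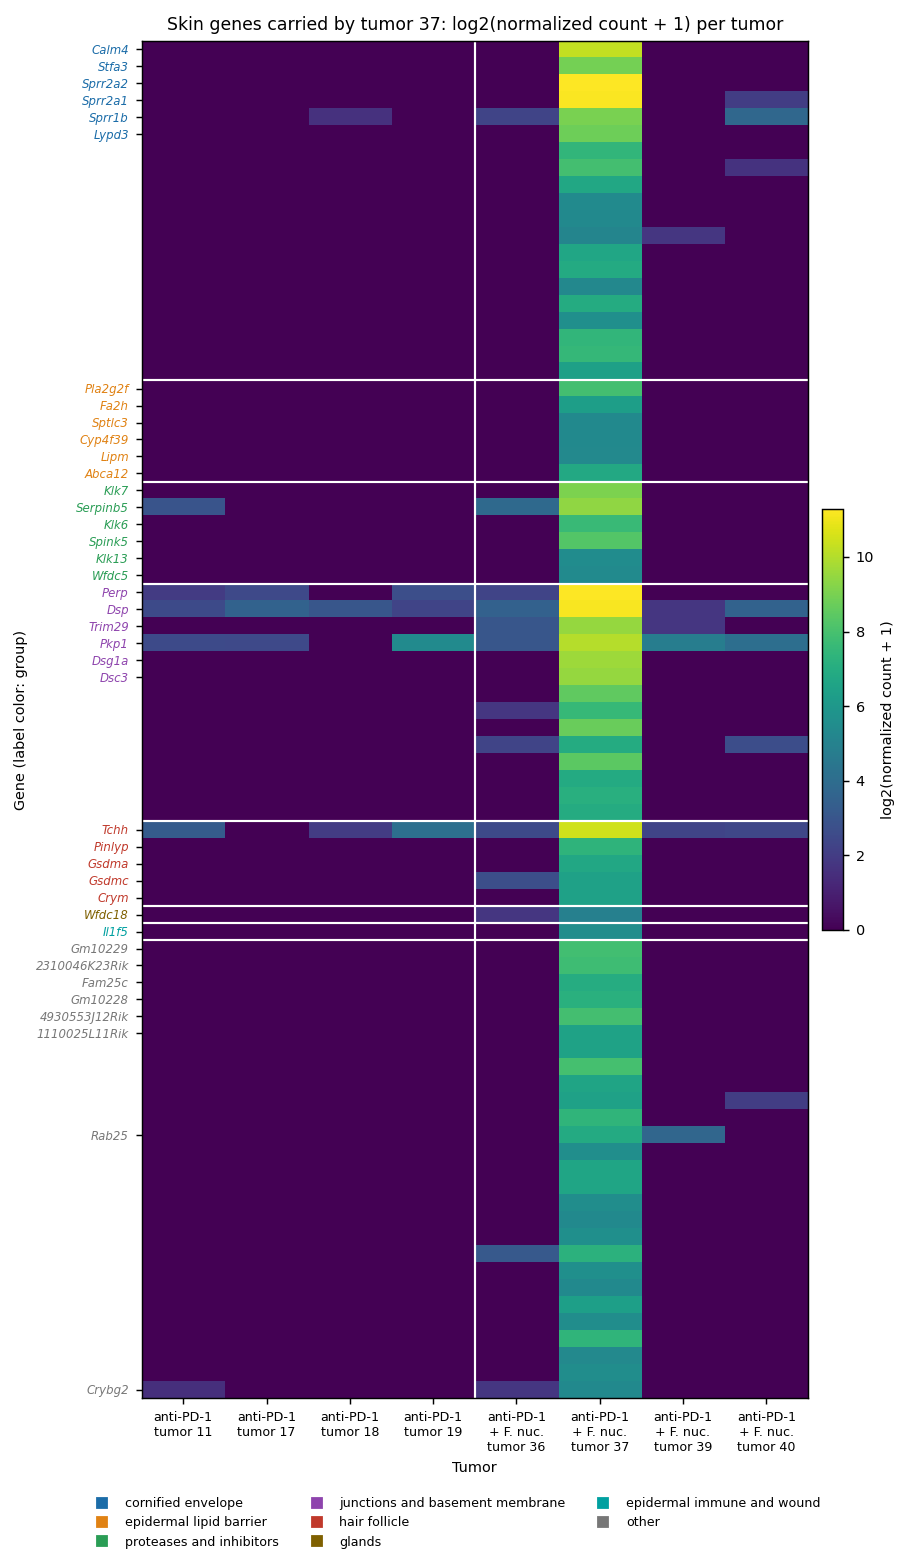
Deposited log2(normalized count + 1) of the 80 genes (rows, grouped by function between white lines, with the genes of the naming rule labelled and the group in the label color) in the 8 tumors (columns). Tumor 37 is the bright column, and 62 of the 80 rows are at 0 in every other tumor.

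In 62 of the 80 genes (77.5%) no read was found outside tumor 37, and the other 18 genes had 352 reads in the other 7 tumors together. Pooled over the 80 genes, tumor 37 held 98.8% of the normalized counts. The 43 genes with a Krt symbol that met the same mark (24 keratins, 18 keratin-associated proteins and Krtdap) gave a like picture, with 36 of 43 (83.7%) at 0 reads elsewhere. Those 43 genes summed to 442.5 FPKM in tumor 37 and the 80 genes to 196.2 FPKM, a ratio of 2.25. Of the 80 genes, 5 had at least 10 FPKM in tumor 37, 38 had at least 1 FPKM, and the median was 0.938 FPKM.

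**Figure D2:**
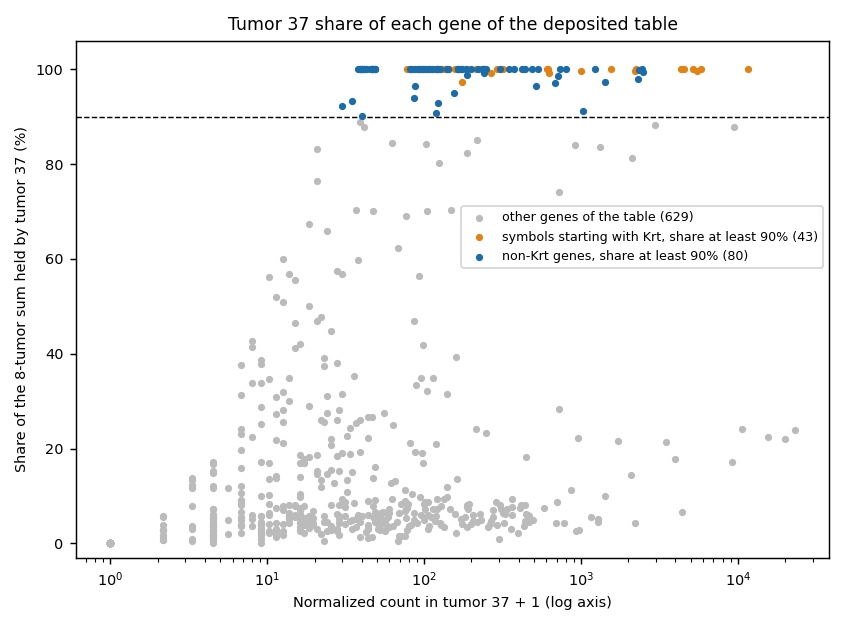
Share of the summed normalized counts of the 8 tumors that tumor 37 held (vertical axis, percent) against the normalized count in tumor 37 plus 1 (horizontal log axis) for the 752 genes of the deposited table. The 80 genes described here (blue) and the 43 genes with Krt symbols (orange) lie on or above the dashed 90% line, and 62 of the blue points are at 100%.

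The members closest to the mark were Crybg2 at 90.1%, Rab25 at 90.7% and Pkp1 at 91.1%. Just below it lay Mt4, an epithelial metallothionein, at 89.0%, Pla2g4f, a phospholipase A2, at 87.8%, and a gene without a symbol in the deposited table, named Chtf8 in GENCODE M21, also at 87.8%. Normalized counts in tumor 37 were 39.4, 118.2 and 1029 for the 3 inside and 38.2, 40.6 and 9443 for the 3 outside.

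Genes of the cornified envelope made up the largest of the fixed groups and 45.8% of the summed FPKM of the 80 genes. Of 87 listed genes, 26 were in the table. All 26 had a higher mean with F. nucleatum, as had 399 of all 752 genes. The choice of members by tumor 37, an F. nucleatum tumor, favors this direction, so nothing is read from it. Of the 26 genes, 20 met the 90% mark that chose them. In 16 of these 20 no read was found in another tumor. The 6 others in the table were Sfn (81.2% in tumor 37), Dmkn (83.6%), Nccrp1 (80.1%), Sprr1a (74.1%), Scel (68.9%) and Sprr2k (25.3%). Sprr2k, a small proline-rich gene, was highest in tumor 40, with 1.05 FPKM there, 0.868 in tumor 37, 0.65 in tumor 39 and 0.414 in tumor 36. With anti-PD-1 alone Sprr2k had 0.245, 0.155, 0 and 0 FPKM in tumors 11, 17, 18 and 19.

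Calm4, a calmodulin-like calcium-binding protein of the epidermis (chromosome 13, 3837757 to 3838673, GRCm38), had the highest FPKM of the 80 genes. Its normalized count was 1221 in tumor 37, from 1053 reads (95% exact Poisson interval 990 to 1119), and it had no read in the other 7 tumors. Its level was 20.5 FPKM (19.3 to 21.8). Stfa3, a stefin that inhibits cysteine proteases and has close paralogs, followed the same pattern with 484.5 in tumor 37 and 0 elsewhere, or 18.2 FPKM (16.5 to 20.1). The intervals of Calm4, Stfa3 and the junction gene Perp (19.7 FPKM, 18.9 to 20.6) overlap, so the order of these 3 levels is not resolved by counting.

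The Sprr2a genes encode small proline-rich proteins that transglutaminases cross-link into the envelope. Sprr2a2 (chromosome 3, 92215920 to 92256724) had a normalized count of 2457 in tumor 37 and 0 in the other 7 tumors. Sprr2a1 (chromosome 3, 92215799 to 92221911) had 2347 in tumor 37, 3.17 in tumor 40 and 0 in the other 6. Their gene models overlap in GENCODE M21, and 92.5% of the 50-base stretches of the Sprr2a1 transcript also occur in transcripts of Sprr2a2 (96.5% the other way), so the split of reads between these 2 copies is uncertain. The 250 bases before their RefSeq starts were identical at 250 of 250 positions, and this upstream sequence is shown once for both copies, with the coordinates of Sprr2a1 (chr3:92215585-92215834, plus strand, GRCm38.p6).
Sprr2a1: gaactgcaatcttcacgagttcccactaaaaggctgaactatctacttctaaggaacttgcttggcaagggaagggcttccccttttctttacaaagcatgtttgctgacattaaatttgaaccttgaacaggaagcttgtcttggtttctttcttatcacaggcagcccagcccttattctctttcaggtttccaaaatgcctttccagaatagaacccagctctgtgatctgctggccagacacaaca

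Sprr1b, another small proline-rich gene (chromosome 3, 92436809 to 92438789), was among the envelope genes with reads outside tumor 37. Its normalized counts with anti-PD-1 alone were 0, 0, 2.03 and 0 in tumors 11, 17, 18 and 19. With F. nucleatum they were 4.01, 518.1, 0 and 12.7 in tumors 36, 37, 39 and 40. Tumor 37 is far above the rest, tumors 40 and 36 are the next, and the groups overlap at 0. Lypd3, a membrane-anchored protein of the Ly6 family, had 439.3 in tumor 37 and 0 elsewhere, or 4.11 FPKM. Its relative Lypd5 had 238.8 in tumor 37, 2.11 in tumor 40 and 0 in the other 6.

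The longest proteins of the envelope had low levels per length. Flg (filaggrin, which bundles keratin filaments), Flg2 and Hrnr (hornerin) had 184.3, 83.5 and 171.5 normalized counts in tumor 37 and 0 elsewhere. Per length these are 0.148, 0.0613 and 0.236 FPKM. These genes consist largely of repeats, where short reads are hard to place, so the levels are uncertain. Casp14, the protease that helps to process filaggrin, had 118.2 normalized counts and 0.76 FPKM. The late envelope genes Lce1a1 and Lce1f had 41.7 and 40.6 normalized counts in tumor 37 and 0 elsewhere. They belong to a family of close copies, which makes them uncertain as single genes. Lypd5, Flg, Flg2, Hrnr, Casp14 and these 2 Lce genes lie outside the rule for named genes and were chosen, for their known roles, after their values were seen.

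Lipid barrier genes formed a small group with no read outside tumor 37. Of 39 listed, 6 were in the table and all 6 met the mark. Pla2g2f, a secreted phospholipase of the upper epidermis, led with 241.1 normalized counts, or 1.51 FPKM (1.31 to 1.73). Abca12, the transporter that loads lipid into the granules of keratinocytes, has a long transcript and had 111.3 normalized counts and 0.116 FPKM. Fa2h, which hydroxylates the fatty acids of ceramides, had 79.98, Sptlc3, a subunit of the enzyme that starts ceramide synthesis, 39.4, Cyp4f39, a fatty acid hydroxylase, 39.4, and Lipm, a lipase, 38.2 normalized counts in tumor 37. The FPKM intervals of Sptlc3 (0.146 to 0.295), Cyp4f39 (0.142 to 0.286) and Lipm (0.115 to 0.235) overlap.

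Proteases and their inhibitors were represented on both sides of shedding. Of 50 listed, 10 were in the table and 6 met the mark. Klk7, a kallikrein that cuts desmosome proteins (chromosome 7, 43811294 to 43816359), had 533.2 normalized counts in tumor 37 and 0 elsewhere, or 4.35 FPKM (3.96 to 4.77). Its neighbours Klk6 and Klk13 had 199.4 and 44.0 normalized counts in tumor 37 and 0 elsewhere, and Klk9, with 70.1% of its counts in tumor 37, fell short of the mark. Spink5, the inhibitor that restrains epidermal kallikreins, had 304.8 and 0 elsewhere, or 0.986 FPKM. Wfdc5, a small secreted protein of the protease inhibitor type, had 41.7 and 0 elsewhere. Also below the mark were Tmprss4, Capn12 and Tmprss11f, with 84.1%, 57.5% and 44.7% of their counts in tumor 37. Tmprss11f had 24.3 normalized counts in tumor 37 and 22.5 in tumor 36.

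Serpinb5, known as maspin, was the 1 member of this group with reads in other tumors. Its normalized counts were 6.69, 0, 0 and 0 in tumors 11, 17, 18 and 19, and 13.6, 683.9, 0 and 0 in tumors 36, 37, 39 and 40. Tumor 11 of the anti-PD-1 group thus lay above tumors 39 and 40 of the F. nucleatum group.

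The group of junctions and basement membrane had the most reads outside tumor 37, with 210 of the 352. Pkp1 alone gave 117 of these reads. The list also holds other epithelial genes, such as the splicing regulator Esrp1. Of 57 listed genes of junctions and basement membrane, 16 were in the table and 14 met the mark. These 14 made up 21.1% of the summed FPKM of the 80 genes. The remaining 2, Col17a1 (collagen XVII of hemidesmosomes) and Itgb6 (an integrin chain), had 84.0% and 59.998% of their counts in tumor 37.

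Perp, a membrane protein of desmosomes (chromosome 10, 18845020 to 18857073), had the largest normalized count of the 80 genes, 2493 in tumor 37. It had 2.87, 4.66, 0 and 5.52 in the anti-PD-1 tumors 11, 17, 18 and 19, and 4.01, 0 and 0 in tumors 36, 39 and 40. Dsp (desmoplakin, which anchors keratin to the desmosome) had reads in all 8 tumors. Its normalized counts were 4.78, 10.9, 7.11 and 3.94 with anti-PD-1 alone and 10.4, 2315, 2.42 and 10.6 with F. nucleatum. Tumor 39 was the lowest of the 8 for Dsp and tumor 37 the highest, so the groups overlap.

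Pkp1 (plakophilin 1, which links desmoplakin to the cadherins) was the member with the most reads elsewhere, 117 in 6 tumors. Its normalized counts were 4.78, 4.66, 0 and 41.0 in tumors 11, 17, 18 and 19, and 7.22, 1029, 26.6 and 15.9 in tumors 36, 37, 39 and 40. Tumor 19, with anti-PD-1 alone, ranked second to tumor 37. Trim29, a tripartite motif protein of stratified epithelia, had 7.22, 714.0, 2.42 and 0 in tumors 36, 37, 39 and 40 and 0 in all 4 anti-PD-1 tumors.

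The 5 desmosomal cadherins in the table, a type that bridges neighbouring cells, were at 0 outside tumor 37. Other listed desmosomal cadherins were not in the table, so their levels were not analysed here. Dsg1a had 797.4 normalized counts (2.17 FPKM) and Dsc3 733.7 (2.10 FPKM) in tumor 37, and Dsc1, Dsg3 and Dsg1b, counted but outside the rule for named genes, had 420.7, 345.4 and 139.1. Dsg1a and Dsg1b are close copies. Epcam, an adhesion molecule of epithelia and of most carcinomas, had 185.5 normalized counts in tumor 37, 2.41 in tumor 36 and 0 in the other 6 tumors. It was named after its values were seen, because the labels give the tumor cells as colon adenocarcinoma and it marks epithelia. Esrp1, an epithelial splicing regulator named for the same reason, had 121.7 in tumor 37 and 0 elsewhere. Other epithelial genes of the table had reads elsewhere, such as Cldn4, with 4.01 and 5.28 normalized counts in tumors 36 and 40. Rab25 had 12.1 in tumor 39.

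Hair follicle genes included follicle structure and gasdermins. Of 57 listed, 6 were in the table and 5 met the mark, and the sixth, the hair transcription factor Hoxc13, had 67.3% of its counts in tumor 37. Tchh (trichohyalin, which hardens the inner root sheath of the hair, chromosome 3, 93442330 to 93449077) had 1429 normalized counts in tumor 37, or 3.78 FPKM (3.574 to 3.999). Its other values were 8.61, 0, 3.05 and 16.6 in tumors 11, 17, 18 and 19 and 4.81, 4.03 and 4.23 in tumors 36, 39 and 40. Tumors 19 and 11 therefore lay above 3 of the 4 F. nucleatum tumors.

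Pinlyp, a protein of the Ly6 and phospholipase inhibitor type, had 162.3 normalized counts in tumor 37 and 0 elsewhere, or 2.97 FPKM. Gsdma, a pore-forming gasdermin of skin, had 107.8 in tumor 37 and 0 elsewhere. Gsdmc, a relative, had 85.8 in tumor 37, 5.62 in tumor 36 and 0 elsewhere. Crym, which binds thyroid hormone, had 86.9 in tumor 37 and 0 elsewhere.

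Glands and epidermal immunity had 1 member each, and keratinocyte transcription factors had 0. Of 57 gland genes, 2 were in the table. Wfdc18, a secreted protein of the mammary whey type, had 25 reads in tumor 37, the fewest of the 80 genes (95% interval 16.2 to 36.9), and 3 in tumor 36. The other, Lcn2, was lower with F. nucleatum and had 7.26% of its counts in tumor 37. Il1f5, the antagonist of the receptor for interleukin-36 cytokines, was the 1 immune gene of 44 listed in the table, with 45.2 normalized counts in tumor 37 and 0 elsewhere.

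**Figure D3:**
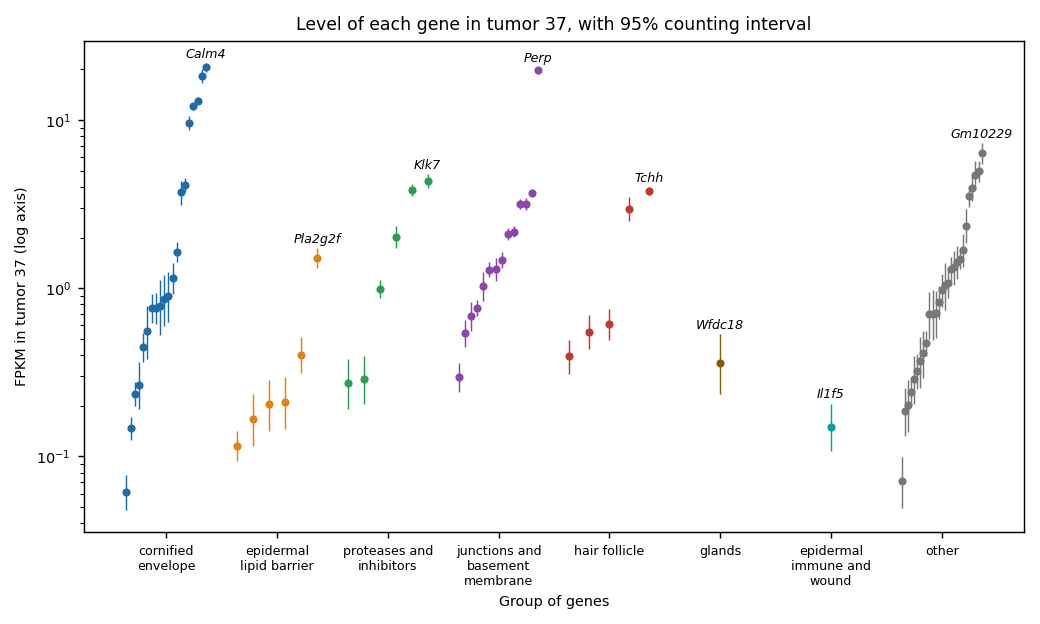
Level of each of the 80 genes in tumor 37 (vertical log axis, FPKM) by group, with 95% Poisson intervals of the reads as bars and the highest gene of each group named. Levels run from 0.0613 FPKM for Flg2 to 20.5 FPKM for Calm4, and the lipid barrier genes stay at or below 1.51 FPKM.

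The other 27 members were in none of the lists, and 23 of them had no read outside tumor 37. They had 21.3% of the summed FPKM. Some of them lie among keratin-associated protein genes although their symbols do not begin with Krt. Gm10229, Gm10228, 1110025L11Rik and 4930553J12Rik on chromosome 16 have 7, 5, 4 and 9 Krtap genes within 100000 bases in GENCODE M21, which names the last of them Krtap15. Gm11562, Gm11563 and Gm11567 on chromosome 11 have 12, 10 and 9, and Gm49425 on chromosome 15 has 10 Krt genes in that distance. So for 8 of the 80 genes the name of non-keratin genes rests on the symbol in the deposited table. Gm10229 had the highest level of the 27, with 231.8 normalized counts in tumor 37 and 6.36 FPKM (5.51 to 7.30). Gm10228 had 141.4, 4930553J12Rik 239.9 and 1110025L11Rik 90.4, and all 4 were at 0 in the other 7 tumors. The genes of such families resemble each other, and their single counts are uncertain.

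2310046K23Rik, which lies between Sprr1b and the Lce1 genes on chromosome 3 (92532505 to 92534511), had 219.1 normalized counts in tumor 37 and 0 elsewhere, or 4.98 FPKM. Fam25c had 125.2 and 0 elsewhere, or 4.73 FPKM. Rab25, a vesicle-trafficking GTPase of epithelial cells, had 118.2 in tumor 37, 12.1 in tumor 39 and 0 in the other 6. Crybg2, a protein with crystallin domains, had 1.91 in tumor 11, 2.41 in tumor 36, 39.4 in tumor 37 and 0 in the other 5. Chit1, a chitinase known from macrophages, and Fcgbp, a mucus-associated protein, had 97.4 and 164.6 in tumor 37 and 0 elsewhere. Both were named after their values were seen, because they are not known chiefly as skin genes.

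Position in the genome was not used by the rule. Runs of 3 or more members with gaps of at most 1000000 bases held 35 of the 80 genes (43.8%) in 6 places. The same rule placed 280 of the other 672 genes of the table (41.7%) in 53 runs, and that larger set lies more densely, so the 2 shares are not on equal terms. The longest run, on chromosome 3 from 92215799 to 94347352, is the epidermal differentiation complex with the neighbouring gene Them5, and held 15 members. It holds 17 genes of the table, of which 15 are these members. GENCODE lists 70 protein-coding genes in this interval, and those outside the table were not analysed here. Chromosome 3 held 21.3% of the 80 genes and 5.51% of the other 672 genes of the table. Further runs were the 5 desmosomal cadherins on chromosome 18, the 3 kallikreins on chromosome 7 (43712567 to 43832030), Lypd5, Pinlyp, Lypd3 and Cnfn on chromosome 7 (24349196 to 25369724), and the keratin-associated neighbourhoods of chromosomes 11 and 16. The runs on chromosomes 11 and 16 hold 15 and 10 genes of the table, among them 11 and 6 with Krt symbols. Cnfn and Them5 are named here for their position.

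The annotation deposited by the authors covered the 80 genes more fully than the rest, with at least 1 molecular function for 73.8% of them and for 56.1% of the other 672 genes, and a cellular component for 83.8% against 62.2%. Calcium ion binding was annotated for 14 of the 80 genes (17.5%) and for 3.57% of the other genes of the table. Peptidase activity was annotated for 12 (15.0%) against 4.32%, and peptidase inhibitor activity for 5 (6.25%) against 1.04%. The cornified envelope was given for 10 (12.5%) against 0.595%, and the desmosome for 9 (11.3%) against 0%. Other terms were given less often to the 80 genes, such as immune system process (5% against 16.8%) and signaling (11.3% against 21.7%). These shares describe a set that was chosen by its values, and the genes of one family share annotation.

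The sequence before the start of the genes was read for 57 of the 80 genes that had an entry among RefSeq promoters (GRCm38.p6). The letters TGANTCA allow any middle base and are looser than the core of AP-1 factors, TGAGTCA or TGACTCA. In the 250 bases before the first listed start, TGANTCA occurred on either strand in 11 of 57 genes (19.3%). It occurred in 10.2% of the 361 other table genes and in 6.87% of 27025 genes with a promoter. Among the 16 envelope genes with an entry, 5 held it, each as TGAATCA or TGATTCA, outside the core. The share of other genes with the core alone was not computed, so these shares do not describe the core. The letters AACCNGTT of grainyhead factors occurred in 3 of 57 (5.26%) against 1.71% of all, TTGCNNAA of C/EBP factors in 10 (17.5%) against 9.55%, CCNCNCCC of KLF and SP factors in 32 (56.1%) against 45.6%, and the TATA box letters TATAAA in 13 (22.8%) against 13.0%. In the other table genes those shares were 1.94%, 13.9%, 49.6% and 24.1%. A match is a run of letters and does not show that a factor binds.

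The 12 matches to TGANTCA in these 11 genes lay 52 to 240 bases before the start. The letters were TGACTCA in 4 matches, TGAGTCA in 1, and TGAATCA or TGATTCA, outside the AP-1 core, in the other 7. Those of the envelope genes and of Serpinb5 are shown so that the letters around the core can be compared, with 10 bases on each side, read along the gene, and the 7 core bases in capitals.
Flg (chr3:93273433-93273459, plus strand): tggttaagaaTGAATCAgaccatccca
Flg2 (chr3:93197194-93197220, plus strand): tgattagaaaTGAATCAgcccatccca
Rptn (chr3:93393593-93393619, plus strand): gagcccagaaTGATTCAggccctacca
Tchhl1 (chr3:93468657-93468683, plus strand): ttggtggtgaTGAATCAggtcattaca
Sprr1b (chr3:92438874-92438900, minus strand): gcacctaggaTGAATCAtgtctgacag
Serpinb5 (chr1:106861025-106861051, plus strand): aagttgggccTGAATCAtgtcttccaa
The core was the motif searched, so only the 20 bases around it are compared. Those of Flg and Flg2, both filaggrin-type genes, were identical at 16 of 20 positions. Over the 14 other pairs of these 6 windows the count ran from 4 (Flg2 and Sprr1b) to 12 (Flg and Rptn) of 20. Sprr1b, which lies in the same complex as Flg, matched it at 5 of 20, and Serpinb5, on chromosome 1, matched Flg at 9 of 20. The 2 matches in Cldn4 and those in Chit1, Fam25c, Gm11563 and Psapl1 are not shown. Among these are all the matches with TGAGTCA or TGACTCA.

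Sprr1b is shown whole. Its 250 bases hold TGAATCA, a match to TGANTCA, which begins 111 bases before the start. They also hold the TATA box letters, which begin 30 bases before the start (chr3:92438780-92439029, minus strand, GRCm38.p6, with both motifs in capitals).
Sprr1b: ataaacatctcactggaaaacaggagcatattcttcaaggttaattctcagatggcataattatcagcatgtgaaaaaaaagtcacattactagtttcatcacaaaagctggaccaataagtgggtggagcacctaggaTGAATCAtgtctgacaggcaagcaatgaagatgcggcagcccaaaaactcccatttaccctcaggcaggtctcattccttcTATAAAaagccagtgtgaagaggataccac

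Outside tumor 37 the 18 genes with reads were spread thinly over both groups. Members with at least 1 read numbered 6, 3, 3 and 4 in tumors 11, 17, 18 and 19, and 13, 6 and 8 in tumors 36, 39 and 40. Their summed normalized counts were 29.6, 20.2, 12.2 and 67.0 with anti-PD-1 alone, and 76.2, 49.99 and 57.1 in the 3 other F. nucleatum tumors, against 26055 in tumor 37. Tumor 19 lay within the range of tumors 36, 39 and 40, so the groups overlap without tumor 37 too. All 18 genes had a read in at least 1 of tumors 36, 39 and 40, 7 of them also with anti-PD-1 alone, and 9 had reads in a single other tumor. In tumor 19, Pkp1 gave 52 of the 85 reads.

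**Figure D4:**
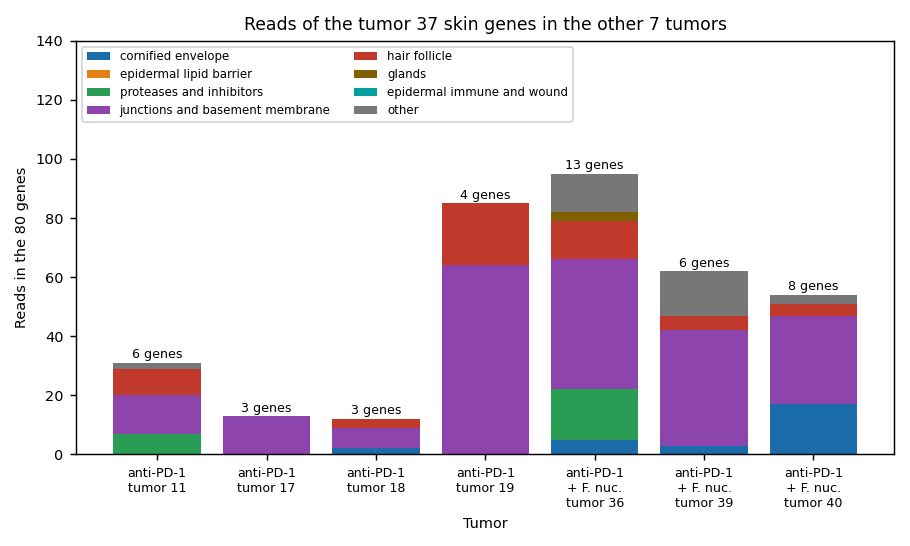
Reads of the 80 genes in the 7 tumors other than tumor 37 (vertical axis), stacked by group of genes, with the number of genes that had a read above each bar. Totals run from 12 reads in tumor 18 to 95 in tumor 36, and the group of junctions and basement membrane is the largest part in each of the 7 tumors.

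The authors' deposited table compares the 2 groups, and the rule used the same tumors, so nothing is read from the following counts. All 80 genes had a higher mean log2 value with F. nucleatum, with a median difference of 1.74 and a range of 1.31 to 3.57. The median over all 752 genes was 1.18, and 1.94 over the 399 higher ones. For the 62 genes at 0 elsewhere, the log2 difference equals its own standard error (SE) by arithmetic, for example 2.56 ± 2.56 (SE) for Calm4. In 0 of the 80 genes were all 4 F. nucleatum tumors above all 4 anti-PD-1 tumors, where 7.18% of the table had that order and 19.5% had it in either direction. All 4 anti-PD-1 tumors were at 0 reads in 73 of the 80 genes (91.3%) and in 27.3% of the table.

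A false discovery rate (FDR) under 0.05 was held in the authors' deposited table by 48 of the 80 genes (60%), beside 15.2% of the 752 genes with such an FDR and a higher mean and 21.4% with such an FDR in either direction. Of the 62 genes at 0 elsewhere, 43 had such an FDR and 19 did not. The 43 had at least 69 reads in tumor 37 and an FDR of at most 2.96e-06 in the authors' deposited table, and the 19 had at most 41 reads and an FDR of at least 0.971. Of the 18 genes with reads elsewhere, 5 had an FDR under 0.05 there, namely Sprr2a1, Lypd5, Trim29, Epcam and Dsp. Perp, with 2151 reads in tumor 37 and 18 elsewhere, had an FDR of 0.582 in the authors' deposited table. Sprr2a2, with 2120 and 0, had 2.92e-10 there. Both rest on the same tumor.

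**Figure D5:**
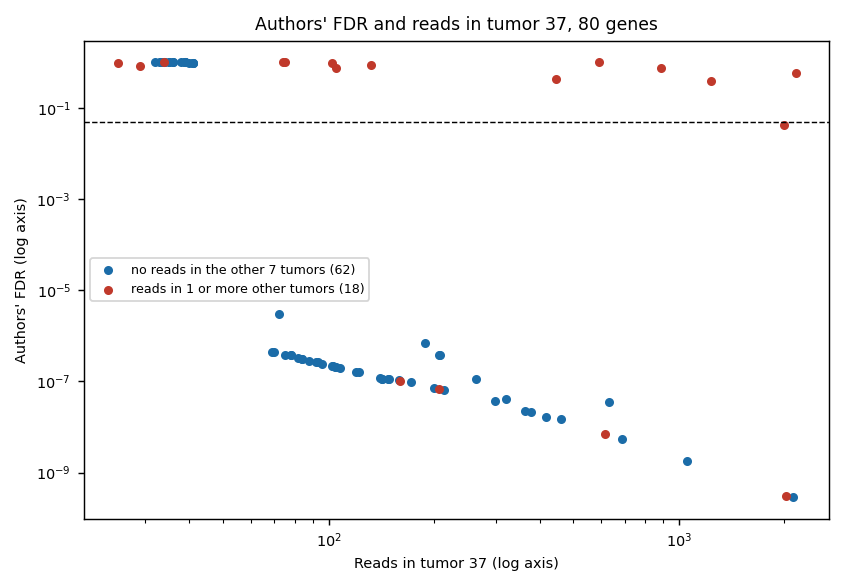
Authors' FDR (vertical log axis) against reads in tumor 37 (horizontal log axis) for the 80 genes, split into 62 with no read in the other 7 tumors (blue) and 18 with reads there (red). The dashed line marks 0.05, and the blue points fall into 19 above it with at most 41 reads and 43 below it with at least 69.

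When tumor 37 was left out, the log2 differences of the 80 genes had a median of 0. The difference was 0 in 62 genes, above 0 in 17 and below 0 in 1. Genes entered the table by a difference between these same groups, so nothing is read from this lean. A difference beyond 1 was left in 7 genes, of which 6 were higher with F. nucleatum: Cldn4 (1.66), Sprr1b (1.63), Trim29 (1.60), Pkp1 (1.36), Rab25 (1.24) and Fxyd3 (1.06). Perp was lower, at -1.01. Cldn4, a tight junction protein, and Fxyd3, a regulator of the sodium pump, were named after their values were seen. Cldn4 had 4.01 and 5.28 normalized counts in tumors 36 and 40 and 0 in tumor 39 and in the anti-PD-1 tumors. Fxyd3 had 8.02 in tumor 36 and 0 in tumors 39 and 40 and in the anti-PD-1 tumors. In Sprr1b, Perp, Trim29, Cldn4, Rab25 and Fxyd3 at least 1 of tumors 36, 39 and 40 was at 0, and Pkp1 was higher in tumor 19 than in any of these 3.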

How the data were processed

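Per the labels, TRIzol was used to extract total RNA from the 8 tumors, and a TruSeq kit gave libraries that keep the strand. Tools listed without role or order in the submitters' processing notes are STAR 2.5, DESeq 1.22.1, Cuffnorm and FastQC, with the build mm10. The authors' deposited log2 values are log2(normalized count + 1), and undoing this gave whole multiples of 1 read in 100% of values above 0 (tolerance 0.1 read). The deposited FPKM values, p-values and FDR were taken as given, and the sources used here do not give the test behind the authors' p-values. The authors' deposited log2 fold change equals the difference of the group means of the log2 values. The table lists genes with an unadjusted p-value under 0.05 in that comparison, so skin genes outside it were not analysed here.

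The members, the 8 lists of functions and the 8 lists of markers were chosen with earlier results of these data known. A member belongs to the first list that holds its symbol. Named genes were up to 6 per group by FPKM in tumor 37 and 3 on each side of the 90% mark, and others are said to be named later. Read intervals are exact Poisson intervals at 95%, and FPKM intervals scale with them. Replicate numbers follow accession order. All 752 IDs were found in GENCODE M21 (GRCm38, the assembly of mm10). Promoters are from RefSeq (GRCm38.p6). Transcripts of the Sprr2a genes are from GENCODE M21. The recovery of reads was tested on simulated data. Software was matplotlib 3.10.9, scipy 1.17.1, pandas 2.3.3, numpy 2.4.6 and Python 3.11.15. Alternatives were other marks, FPKM, filters on reads and FPKM, other pseudocounts and FDR limits, and leaving out tumors. Some single-gene results are not reported here.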

Additional observations from a re-analysis of the deposited data

Results flagged for a closer look

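A tumor stood apart from the others of its group of 4 where its gap to the nearest tumor, divided by the range of the group, was above Dixon's 95% critical value for 4 samples. For normally distributed values chance alone gives this in about 1 in 20 groups. That rate does not hold here, because a gene or sum with reads in a single tumor of a group has a ratio of 1 by arithmetic. The genes were also chosen for such a gap, so the choice of genes fixes these gaps in the F. nucleatum group. In the F. nucleatum group tumor 37 stood apart in the summed counts of each group of genes and in the named genes. The ratio was 1 in most of them, 0.99 in Trim29 and in the proteases and inhibitors, 0.98 in Sprr1b, Serpinb5 and Pkp1, 0.94 in Crybg2, 0.93 in Gsdmc, 0.92 in Wfdc18 (the 1 gland gene) and Mt4, 0.90 in Rab25 and 0.86 in Pla2g4f. In the anti-PD-1 group the ratio was 0.88 in Pkp1, where tumor 19 had a normalized count of 41.0 and the others at most 4.78. It was 1 in Sprr1b, Serpinb5, Crybg2 and Mt4, each with reads in a single anti-PD-1 tumor, so nothing is read from these ratios. Sprr1b and Crybg2 had 2 reads each there, within the 3 reads that a value of 0 allows. The summed counts of the cornified envelope, of the proteases and inhibitors and of the genes in no list also had a ratio of 1 in that group. These sums too had reads in a single anti-PD-1 tumor, with 2, 7 and 2 reads.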

How the results depend on the processing

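The 90% mark gave 80 genes, 80% gave 92, 95% gave 73 and 99% gave 65. With FPKM in place of normalized counts 82 genes met the mark, among them all 80. A minimum of 10 reads in tumor 37 left 80. With 1 of the other 7 tumors left out the count ranged from 80 to 95, the highest without tumor 36. A mean of at least 1 FPKM over the 8 tumors left 6 genes, of which 4, against 48 of the 80, were below 0.05 by the FDR of the authors' deposited table. Limits of 0.01 and 0.1 on that FDR gave 47 and 48. The median log2 difference of 1.74 became 0.24 on log2(FPKM + 1), 0.86 on log2(FPKM + 0.1) and 2.69 in the 6 genes. With 1 tumor left out in turn it ranged from 0 (without tumor 37) to 2.32. Of the 80 genes, 6 kept a difference above 1 without tumor 37, an alternative chosen after seeing the data. No paired analysis was possible because the labels give no replicate numbers and no result here comes from a test. Single-read steps limit the low genes, and the depth of the whole libraries is unknown.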
